A study of Mus musculus with 15 samples.

Results

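Transcripts of 10 mast cell genes were followed through the course of collagen-induced arthritis in the tarsal joint of the mouse. The genes were Cpa3, Cma1, Mcpt4, Tpsb2, Tpsab1, Kit, Fcer1a, Ms4a2, Hdc and Mrgprb1. They were chosen by symbol, with earlier results of these data known, and all 10 had 1 probe set each among the 19938 genes that the array annotation names singly. Whole tarsal joints of male DBA/1JBom mice were measured on Affymetrix Mouse Gene 1.0 ST arrays, 1 joint per array and none pooled. The deposited values are log2 fluorescence after robust multi-array averaging (RMA), so that a difference of 1 is a 2-fold difference.

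Arthritis was induced by intradermal chicken collagen type II in complete Freund's adjuvant on day 1, with a boost of collagen in incomplete Freund's adjuvant on day 21. Arthritic joints fell into 4 phases by the time since clinical onset in that joint. Animals 16 and 18 gave the joints of day 0 to 3, animals 33, 43 and 52 those of week 1 to 2, and animals 54, 29 and 60 those of week 3 to 4, all with a clinical score of 3 when taken. Joints of the decline phase (animals 15, 21 and 10) had held that score for weeks and had then lost at least 1 point. The control joints (controls 1, 2 and 3) came from mice that the labels call non-induced, whereas the description of the animals states that controls received both adjuvants without collagen. Whether these 3 controls had adjuvant is therefore not settled, and no age is given. Skin, fur and visible muscle had been removed, and bone, marrow, synovium and the remaining soft tissue stayed in the sample. The array of animal 57, a joint of day 0 to 3, is marked in the labels as a quality control failure and was left out, so 14 of 15 arrays were used.

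Mast cells are long-lived tissue cells derived from blood progenitors that mature under stem cell factor, the ligand of Kit. Their granules hold serine proteases (chymases and tryptases), carboxypeptidase A, histamine and heparin, and they release them when IgE bound to the receptor FcεRI is cross-linked. In connective tissue, the synovium and joint capsule included, they lie along vessels and nerves, and mice without them have been used to study arthritis driven by antibodies.

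The mast cell genes did not share a direction. In comparisons with control 3 of the 10 were called, all of them for the mean of the 4 phases, at which 12.6% of all genes were called. Here a call is a limma p under 0.05 after Benjamini-Hochberg adjustment across the 19938 genes. Ms4a2, the beta chain of FcεRI, was lower in arthritic joints, Fcer1a, the alpha chain of the same receptor, was higher, and the tryptase gene Tpsab1 was lower. The granule protease genes Cpa3 and Mcpt4 and the stem cell factor receptor gene Kit were called in no comparison. The plot of values by group shows these patterns array by array.

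**Figure D1:**
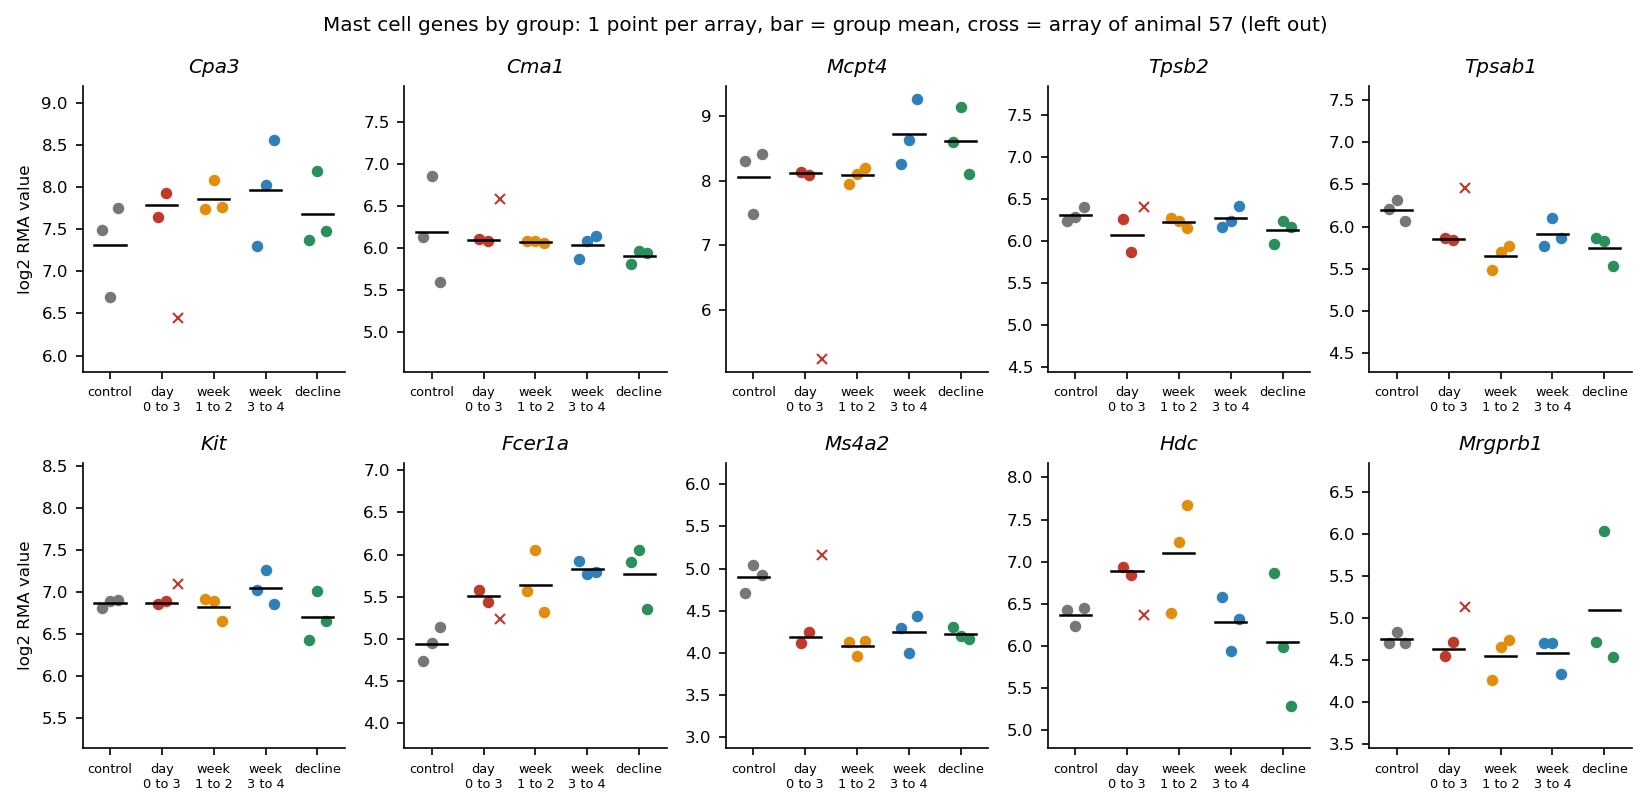
Deposited log2 RMA value of each mast cell gene (y axis) in the control joints and the 4 phases (x axis), with 1 point per array, a bar at the group mean, and a cross for the array of animal 57, which was left out. Every arthritic point of Ms4a2 lies below, and every arthritic point of Fcer1a above, the 3 control points, while the points of the other 8 genes overlap the controls in at least 1 phase.

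FcεRI on mast cells is built of an alpha chain that binds IgE (Fcer1a), a beta chain that amplifies the signal (Ms4a2) and a pair of gamma chains (Fcer1g) that Fcer1a shares with receptors of macrophages and other cells. The alpha and beta chain genes moved in opposite directions. The sequences before their start sites are shown because both genes carry letters to which GATA factors are known to bind in mast cells, with Cpa3 beside them as a granule gene. Each run holds the 250 bases before the start site, 5′ to 3′ on the strand of the gene, from RefSeq on GRCm38.p6. Capitals mark GATAA on either strand (TTATC where the match is on the other strand). The windows are chr1:173227230-173227479 for Fcer1a, chr19:11623720-11623969 for Ms4a2 and chr3:20242182-20242431 for Cpa3, all 3 on the minus strand.
Fcer1a: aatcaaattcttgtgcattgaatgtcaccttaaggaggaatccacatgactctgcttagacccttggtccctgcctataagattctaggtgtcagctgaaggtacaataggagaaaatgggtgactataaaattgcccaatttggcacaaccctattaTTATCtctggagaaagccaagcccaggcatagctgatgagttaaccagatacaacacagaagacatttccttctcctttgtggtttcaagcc
Ms4a2: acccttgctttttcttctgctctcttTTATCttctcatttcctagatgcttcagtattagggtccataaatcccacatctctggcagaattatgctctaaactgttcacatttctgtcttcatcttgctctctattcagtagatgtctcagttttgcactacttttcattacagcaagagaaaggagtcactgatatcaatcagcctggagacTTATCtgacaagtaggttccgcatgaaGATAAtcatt
Cpa3: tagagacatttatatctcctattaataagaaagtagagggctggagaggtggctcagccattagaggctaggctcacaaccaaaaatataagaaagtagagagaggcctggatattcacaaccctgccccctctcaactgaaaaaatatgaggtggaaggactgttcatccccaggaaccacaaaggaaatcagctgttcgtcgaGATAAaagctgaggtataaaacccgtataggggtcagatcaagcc
The Fcer1a window held 1 match, which began 92 bases before the start site, and the Cpa3 window 1 match at 45 bases. In the Ms4a2 window 3 matches began 224, 37 and 10 bases before the start used. That start lies inside the annotated span of the gene, so the matches at 37 and 10 bases fell within the span. Of the 8 members with an entry in the promoter table, 5 had a match (also Cma1 and Mcpt4, but not Kit, Hdc or Mrgprb1), against 7418 of 32851 promoters (22.6%) in the whole table. The members were counted by gene, with a match in any window of the gene, and the whole table by promoter, so the shares are not strictly alike. The Hdc window lay wholly inside the annotated span of its gene. A match describes the letters only, and the arrays did not measure binding.

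Fcer1a (chr1:173221269-173227232) read 4.73, 4.95 and 5.14 in controls 1, 2 and 3. At day 0 to 3 it read 5.58 and 5.44, and in week 1 to 2 it read 5.57, 6.05 and 5.31. In week 3 to 4 the values were 5.92, 5.77 and 5.79, and in decline they were 5.91, 6.06 and 5.35. All 11 arthritic joints thus lay above all 3 controls, and no phase stood apart from the next. The mean over the 4 phases exceeded that of the controls by 0.75 ± 0.17 (SE, log2), a 1.68-fold difference (limma, adjusted p = 0.0159). Over single phases the differences were 0.57, 0.70, 0.89 and 0.83 in order of time, with adjusted p of 0.151, 0.0524, 0.0535 and 0.175 (limma), so that none passed alone. Without decline 10, the arthritic array with the narrowest range of values, the last 3 phases had adjusted p of 0.0219, 0.0186 and 0.0393 for Fcer1a. The phases were not told apart by test: the largest step between successive phases, from week 1 to 2 to week 3 to 4, was 0.19 ± 0.21 (SE, adjusted p = 1.00).

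Ms4a2 (chr19:11615517-11623790) showed the reverse. It read 4.71, 5.04 and 4.93 in the controls, and 4.11 and 4.25 at day 0 to 3. In week 1 to 2 it read 4.13, 3.96 and 4.14, in week 3 to 4 it read 4.29, 4.00 and 4.43, and in decline 4.30, 4.19 and 4.16. Each of the 11 arthritic joints lay below each control. Ms4a2 was lower than control by a factor of 1.64 at day 0 to 3 (log2 change -0.71 ± 0.17 SE, adjusted p = 0.0227), 1.76 in week 1 to 2 (-0.82 ± 0.15, adjusted p = 0.00666) and 1.57 in week 3 to 4 (-0.65 ± 0.15, adjusted p = 0.0485). In decline the difference was of the same size (-0.67 ± 0.15) but did not pass (adjusted p = 0.151), in a comparison in which none of the 19938 genes passed. For the mean of the 4 phases the change was -0.71 ± 0.12 (adjusted p = 0.00368). The call of week 3 to 4 was the least firm of these: it held in 5 of 27 alternatives, whereas those of week 1 to 2 and of the mean over the phases held in 24 and 25. Ms4a2 was also the 1 member for which the 5 groups differed in the moderated F test (limma, adjusted p = 0.0282), at which 5.20% of all genes were called.

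The low values of Ms4a2 bear on this call. Its mean lay at the 7.06th percentile of all genes, and the deposited values carry no detection call. Fcer1a was low too: its control mean was 4.94, beside 4.89 for Ms4a2, and its mean over the 14 arrays lay at the 25.8th percentile. Among the 10% of genes with the lowest mean value, 11.4% were called lower and 0.151% higher for the mean of the 4 phases against control, so that lower calls were the common direction among dim probe sets. The spread of an array over all genes moved with the groups as well. The SD over genes was 1.22 to 1.46 (log2) in the controls and 1.48 to 1.65 on 10 of the 11 arthritic arrays, with decline 10 at 1.28. On that 1 array Ms4a2 read 4.16, below the controls, and Fcer1a 5.35, above them. With the array SD as a covariate, an alternative added after the data were seen, the mean change of Ms4a2 was -0.71 (adjusted p = 0.0248) and that of Fcer1a was 0.52 (adjusted p = 0.176). When every array was set to 1 median and 1 SD, Fcer1a changed by 0.96 (adjusted p = 0.0114) and Ms4a2 by -0.46 (adjusted p = 0.0706). Without control 2, the mean change of Fcer1a was 0.75 (adjusted p = 0.0599) and that of Ms4a2 -0.64 (adjusted p = 0.0223), while Ms4a2 at day 0 to 3 was at -0.64 (adjusted p = 0.0578), and without control 3 it was at -0.70 (adjusted p = 0.0517). Both genes kept their direction in all alternatives run. Which of the pair passed for the mean of the 4 phases differed with how the width of the arrays was treated and with the control arrays used.

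**Figure D2:**
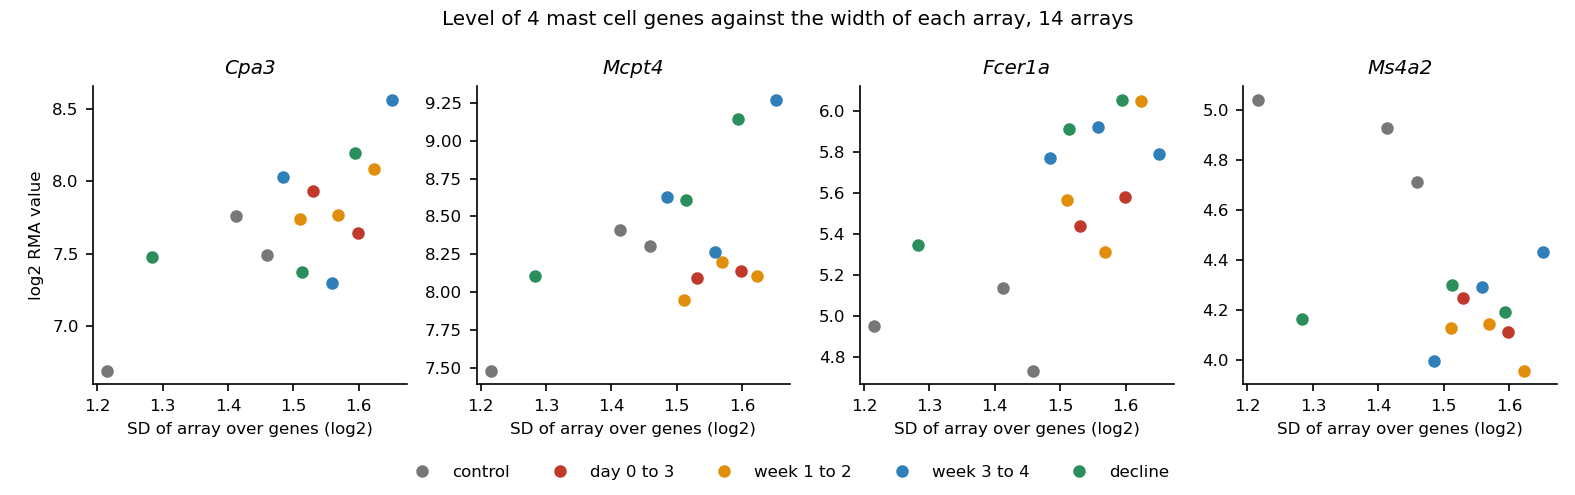
Log2 RMA value (y axis) of Cpa3, Mcpt4, Fcer1a and Ms4a2 against the SD of the array over all genes (x axis, log2), with 1 point per array coloured by group, 14 arrays. The controls lie at 1.22 to 1.46 and the arthritic arrays at 1.48 to 1.65, except decline 10 at 1.28, where Ms4a2 read 4.16 and Fcer1a 5.35.

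Tpsab1 (chr17:25343245-25345562), which encodes a mast cell tryptase and which RefSeq annotates as a transcribed pseudogene on the reference assembly, fell in week 1 to 2. It read 6.21, 6.32 and 6.06 in the controls, and 5.86 and 5.84 at day 0 to 3. Values of week 1 to 2 were 5.48, 5.70 and 5.77. The later joints read 5.77, 6.10 and 5.86 in week 3 to 4 and 5.86, 5.83 and 5.53 in decline. Only animal 29 of week 3 to 4 reached the range of the controls. The change was -0.55 ± 0.15 (SE, 1.46-fold lower) in week 1 to 2 (limma, adjusted p = 0.0382) and -0.41 ± 0.12 for the mean of the 4 phases (adjusted p = 0.0436). Neither call was firm, since leaving out any 1 of the 3 controls raised the adjusted p of week 1 to 2 above the threshold (0.0506 without control 1, 0.107 without control 2 and 0.0501 without control 3), and the call of the mean held in 10 of 28 alternatives. The neighbouring tryptase gene Tpsb2 (chr17:25366308-25368096) read 6.25 to 6.40 in the controls and 5.88 to 6.42 in the arthritic joints, and its mean over the 4 phases differed from control by -0.14 ± 0.12 (SE, adjusted p = 0.423). The 2 tryptase genes have similar sequences, and signal of one may reach the probes of the other.

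Carboxypeptidase A, made from Cpa3, is stored in the granules of connective tissue mast cells together with the chymase made from Mcpt4. Cpa3 (chr3:20215616-20242209) read 7.49, 6.69 and 7.76 in the controls, and 7.64 and 7.94 at day 0 to 3. Joints of week 1 to 2 gave 7.74, 8.09 and 7.77. In week 3 to 4 it read 7.30, 8.03 and 8.56, and in decline 7.37, 8.19 and 7.48. Control 2 was the lowest and animal 60 the highest of the 14 arrays, and each phase overlapped the controls. The differences from control ran from 0.37 ± 0.33 (SE) in decline to 0.65 ± 0.33 in week 3 to 4, all upward and none called (adjusted p from 0.242 to 0.679). The 95% confidence interval of the week 3 to 4 difference reached from -0.06 to 1.36. Without control 2 the 4 differences of Cpa3 in order of time were 0.16, 0.24, 0.34 and 0.06.

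Mcpt4 (chr14:56059744-56062310) read 8.31, 7.48 and 8.41 in the controls, with 8.14 and 8.09 at day 0 to 3. Values of week 1 to 2 were close to these, at 7.95, 8.11 and 8.20. Its values in week 3 to 4 were 8.27, 8.63 and 9.27, all above those of week 1 to 2, and in decline 8.61, 9.14 and 8.11. The step from week 1 to 2 to week 3 to 4 was 0.64 ± 0.30 (SE) and was not called (limma, adjusted p = 1.00). In that comparison 9.91% of all genes lay wholly higher, and 15.0% did not overlap in 1 direction or the other. Against control the difference was 0.66 ± 0.30 in week 3 to 4 (adjusted p = 0.208) and 0.56 ± 0.30 in decline (adjusted p = 0.483). Without control 2, the lowest control, the 4 differences of Mcpt4 in order of time were -0.24, -0.27, 0.36 and 0.26. None of 10 epidermis markers was called in this step by limma, and 8 of 10 had an unadjusted p under 0.05, where 4.98% of all genes had one. The mean log2 value of those markers was 5.74 to 6.34 on the arrays of week 1 to 2, then 6.67, 9.78 and 9.82 on those of animals 54, 29 and 60, and 9.60, 10.40 and 9.41 in animals 15, 21 and 10. The 4 arrays with the highest Mcpt4 (animals 60, 21, 29 and 15) all belonged to those with epidermis means above 9, but control 3 and animal 10, with means of 9.14 and 9.41, read 8.41 and 8.11. The part of residual skin in the values of Mcpt4 was not tested.

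Cma1 (chr14:55941451-55944675), the gene of mouse mast cell protease 5, a chymase-family elastase, read 6.13, 6.87 and 5.60 in the controls. All 11 arthritic joints lay between those extremes, at 5.81 to 6.15, and 4 arrays (animals 18, 43, 33 and 29) shared the value 6.08 to every deposited digit used here. Exact repeats of this kind occurred for 4 members and for 36.2% of all genes, so a tight group of such values says little about biological spread. The 4 phase differences of Cma1 from control ran from -0.10 to -0.29, each with an SE of 0.24 to 0.26, and none was called (adjusted p from 0.648 to 0.827). The sign rested on control 2: without it the differences of Cma1 were 0.23, 0.21, 0.17 and 0.04 in order of time.

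Kit (chr5:75574987-75656722), the receptor for stem cell factor, overlapped the controls in every phase. It read 6.81 to 6.91 in the controls, 6.86 and 6.89 at day 0 to 3, 6.65 to 6.92 in week 1 to 2, 6.86 to 7.26 in week 3 to 4 and 6.43 to 7.01 in decline. Its mean over the 4 phases differed from control by -0.01 (95% confidence interval -0.30 to 0.27, or 0.813 to 1.21 as a ratio to control). Kit is also carried by melanocytes and blood progenitors. None of 5 measured progenitor markers was called in any phase. Of 6 melanocyte markers Pmel alone was called, lower in week 1 to 2 (log2 change -0.54, adjusted p = 0.0395), where 4.64% of all genes were called lower.

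Hdc (chr2:126593659-126624025) encodes histidine decarboxylase, the enzyme that makes histamine in mast cells, basophils and, under inflammation, other myeloid cells. It read 6.43, 6.23 and 6.45 in the controls and 6.93 and 6.85 at day 0 to 3. In week 1 to 2 it read 6.39, 7.23 and 7.67, the last being the highest of all arrays. Later joints read 6.57, 5.94 and 6.31 in week 3 to 4 and 6.86, 5.99 and 5.29 in decline. Day 0 to 3 lay wholly above the controls (0.52 ± 0.40 SE, limma, adjusted p = 0.419), as it did for 18.4% of all genes. In that comparison of 2 with 3 arrays, 46.2% of all genes did not overlap in 1 direction or the other. In week 1 to 2 the difference was 0.73 ± 0.36 (adjusted p = 0.188). The fall from week 1 to 2 to week 3 to 4 by 0.82 ± 0.36 had an unadjusted p of 0.0379 and an adjusted p of 0.954 (limma).

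Mrgprb1 (chr7:48444113-48456342), of the family of Mas-related receptors through which small cationic molecules activate mouse mast cells, read 4.70 to 4.83 in the controls. On 10 of 11 arthritic arrays it read 4.26 to 4.74. The exception was animal 21 of the decline phase at 6.04, where the other 2 decline arrays read 4.71 and 4.54. Cpa3 (8.19) and Mcpt4 (9.14) of animal 21 were the highest of that phase too, and so was its epidermis mean (10.40). No comparison called Mrgprb1, and in decline it differed from control by 0.35 ± 0.30 (SE, adjusted p = 0.666).

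**Figure D3:**
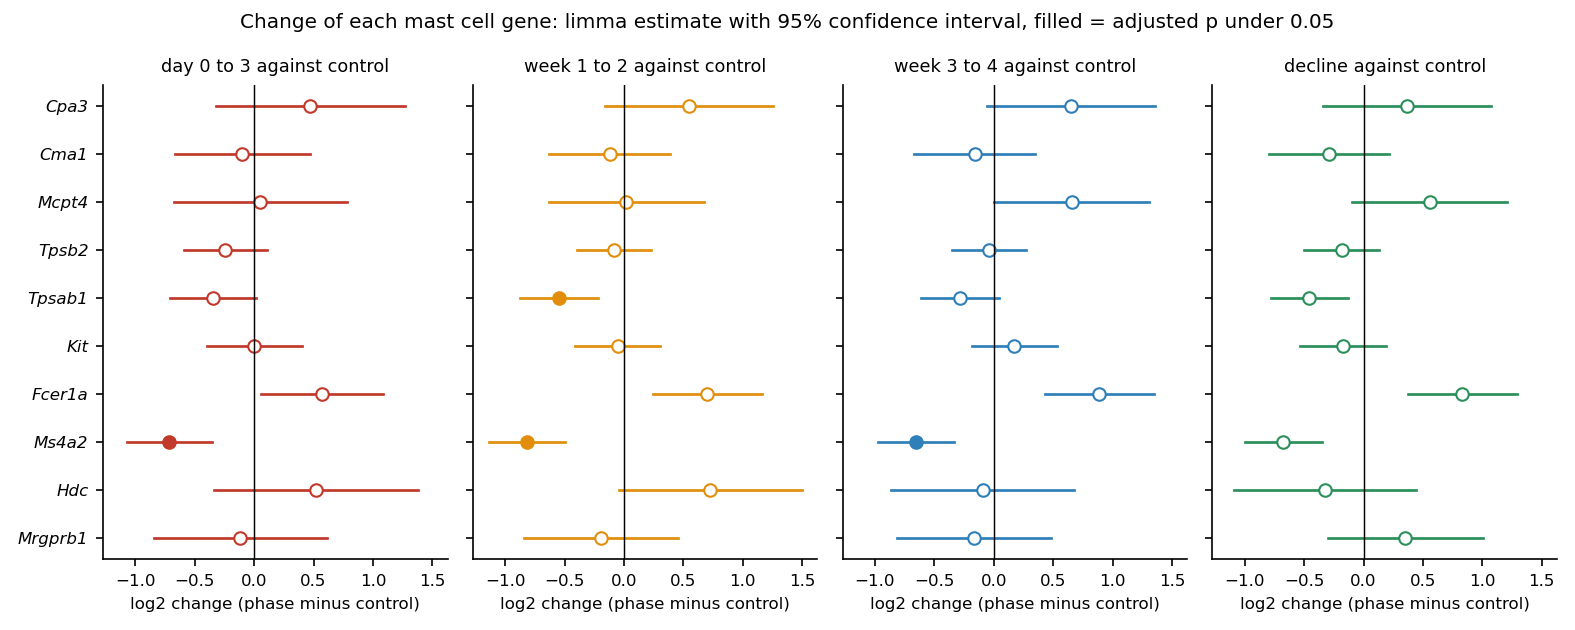
Log2 change of each mast cell gene (rows) from control in the 4 phases (panels), as the limma estimate with its 95% confidence interval, filled where the adjusted p was under 0.05. Ms4a2 is filled in each of the first 3 phases and Tpsab1 in week 1 to 2, and no marker is filled in decline.

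By phase, 1 of 10 mast cell genes was called at day 0 to 3, where 7.82% of all genes were called, 2 of 10 in week 1 to 2 (10.1% of all genes), 1 of 10 in week 3 to 4 (1.55%) and 0 of 10 in decline (0.00%). All these calls were downward, as were those of 3.36%, 4.64% and 0.592% of all genes in the first 3 phases. With every array set to 1 median and 1 SD, the single-phase calls were instead of Fcer1a, upward in week 1 to 2 (adjusted p = 0.0355) and week 3 to 4 (adjusted p = 0.0467), and those of Ms4a2 and Tpsab1 were lost. For the mean of the 4 phases 3 of 10 were called, against 12.6% of all genes, 1 upward (6.54% of all genes) and 2 downward (6.07%). Ms4a2 and Fcer1a were the members whose 11 arthritic joints did not overlap the 3 controls, as was the case for 4.63% of all genes. In decline 3 members (Fcer1a, Ms4a2 and Tpsab1) had an unadjusted p under 0.05 by limma, as did 12.0% of all genes, and a plain linear model also called none after adjustment. The median change of the 10 genes was -0.05, -0.07, -0.07 and -0.18 in the 4 phases in order of time, where that of all genes was -0.12, -0.13, -0.09 and -0.05.

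No member was called between successive phases by limma or by the plain linear model. The share of all genes called was 0.00502% from day 0 to 3 to week 1 to 2, 0.00502% from week 1 to 2 to week 3 to 4 and 0.00% from week 3 to 4 to decline. At an unadjusted p under 0.05, Hdc alone of the members differed, in the step from week 1 to 2 to week 3 to 4, as did 4.98% of all genes. The comparisons with control share their 3 control arrays, and those between successive phases share an array group with the next.

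The levels of the 10 genes were then compared with each other over the 14 arrays. Of 45 pairs, 0 had a correlation that passed after Benjamini-Hochberg adjustment (100000 permutations each, Pearson or Spearman). The closest pair was Cpa3 with Mcpt4, at Pearson r = 0.73 and Spearman rho = 0.45 (permutation p = 0.00358 and 0.104, adjusted p = 0.0903 and 0.781). Without the 2 arrays farthest from the median of Cpa3, r was 0.32. Leaving out the extremes of Cpa3 narrows its range, which by itself tends to lower r. The drop therefore does not settle whether the relation rests on those arrays. After the group means were taken out, r was 0.89. Fcer1a and Ms4a2 were opposed at r = -0.69 and rho = -0.45 (permutation p = 0.00579 and 0.111, adjusted p = 0.0903 and 0.781), but with group means removed r was 0.00, and without the 2 arrays farthest from the median of Fcer1a it was -0.45. Tpsab1 went with Ms4a2 at r = 0.70 and rho = 0.57 (permutation p = 0.00602 and 0.0353, adjusted p = 0.0903 and 0.781). That relation too was absent within groups, with r = -0.21 once their means were removed, and r was 0.55 without the 2 arrays farthest from the median of Tpsab1.

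The members were also set against the width of the array. Over the 14 arrays the SD over genes went with Cpa3 at r = 0.73 and rho = 0.61 (permutation p = 0.0031 and 0.024, adjusted over 10 members to 0.031 and 0.12). Cpa3 was the 1 member of 10 whose r passed, and without the 2 arrays of most extreme SD it was 0.50. For Fcer1a r was 0.65 and rho 0.69 (permutation p = 0.0105 and 0.00826, adjusted p = 0.0524 and 0.0826), with 0.63 without those 2 arrays. Ms4a2 (r = -0.58, rho = -0.42, permutation p = 0.0294 and 0.138) and Mcpt4 (r = 0.57, rho = 0.35, permutation p = 0.0324 and 0.227) both had an adjusted p of r of 0.0809 and of rho of 0.344 and 0.405. Without the 2 arrays of most extreme SD, r was -0.57 for Ms4a2 and 0.29 for Mcpt4. After the group means were taken out, r with the array SD was 0.85 for Mcpt4, 0.61 for Cpa3, 0.53 for Fcer1a and -0.04 for Ms4a2, so that Cpa3 and Mcpt4, which went together within groups at r = 0.89, both also went with array width there. The remaining 6 members had adjusted p of r from 0.105 upward.

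The genes most like Cpa3 over the 14 arrays were not mast cell genes by name. The 10 with the highest Pearson r were Atp1b3 (0.89), Acbd6, Yif1a, Tefm, Ints10, Nsfl1c, Aatf, Ndufaf1, Xrcc4 and Clp1 (0.86), and their own r with the array SD ran from 0.61 for Yif1a to 0.87 for Ndufaf1. Mcpt4 stood at place 259 of 19937 genes in that order, Fcer1a at 2605, Kit at 5286, Tpsb2 at 6036, Mrgprb1 at 7011 and Hdc at 7254. Tpsab1 (11578), Cma1 (12623) and Ms4a2 (14476) stood in the part with negative r.

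The wider mast cell programme was described with lists of genes whose products serve mast cells but many of which are shared with other leukocytes. Downstream of FcεRI, 4 of 15 measured signalling genes rose at day 0 to 3 and 0 fell, where 4.46% of all genes rose and 3.36% fell. They were the common gamma chain Fcer1g (log2 change 1.93, adjusted p = 0.0103), the kinase Syk (0.89, adjusted p = 0.0164), the adaptor Lcp2 (1.06, adjusted p = 0.0355) and the phosphatase Inpp5d (1.10, adjusted p = 0.0111). In week 1 to 2 Fcer1g was still higher (1.27, adjusted p = 0.0346), while the calcium channel gene Orai1, named after its values were seen, was lower (-0.64, adjusted p = 0.0186). Of the 3 chain genes of the receptor at day 0 to 3, that of the gamma chain was called higher, that of the alpha chain stood at 0.57 and was not called, and that of the beta chain was called lower.

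In the list of other mast cell surface receptors, which also holds the cytokine gene Il33, 4 of 10 rose at day 0 to 3, where 4.46% of all genes rose. They were 3 receptor genes and Il33. In week 1 to 2 the 3 receptor genes were called, where 5.41% of all genes rose. The complement receptor genes C3ar1 (2.10, adjusted p = 0.00414) and C5ar1 (1.07, adjusted p = 0.0338) and the leukotriene receptor gene Cysltr1 (1.10, adjusted p = 0.013) were called at both times, with the values given being those of day 0 to 3. Il33, named after its values were seen, encodes a ligand that acts on mast cells (1.13 at day 0 to 3, adjusted p = 0.0353). Cd200r3 was called lower for the mean of the 4 phases (-0.48, adjusted p = 0.0459).

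For the counts of day 0 to 3 that follow, 4.46% of all genes rose and 3.36% fell. Of 8 genes of granule storage and histamine handling, Srgn, the core protein that carries granule heparin, was the 1 that rose at day 0 to 3 (1.61, adjusted p = 0.0229). In the list of growth and transcription factors 2 of 12 rose then, Csf2rb (1.66, adjusted p = 0.00622) and Csf2rb2 (0.99, adjusted p = 0.0254), chains of cytokine receptors. Kitl, the ligand of Kit, changed by 0.19 (adjusted p = 0.565), and the GATA factor genes Gata1 and Gata2 by -0.32 and -0.06 (adjusted p = 0.259 and 0.849) at day 0 to 3. Of 7 other granule protease genes, Mcpt2 rose (1.16, adjusted p = 0.0359) and Mcpt1 (-0.86, adjusted p = 0.0211) and Prss34 (-0.56, adjusted p = 0.0432) fell at day 0 to 3. Among 6 eicosanoid enzyme genes, Ptgs2 rose (1.29, adjusted p = 0.0279) and Ltc4s fell (-0.95, adjusted p = 0.0217) at day 0 to 3. Pla2g4a of that list rose in week 3 to 4 (0.96, adjusted p = 0.0407), where 0.958% of all genes rose. In decline no gene of these 6 lists was called, as for all genes.

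**Figure D4:**
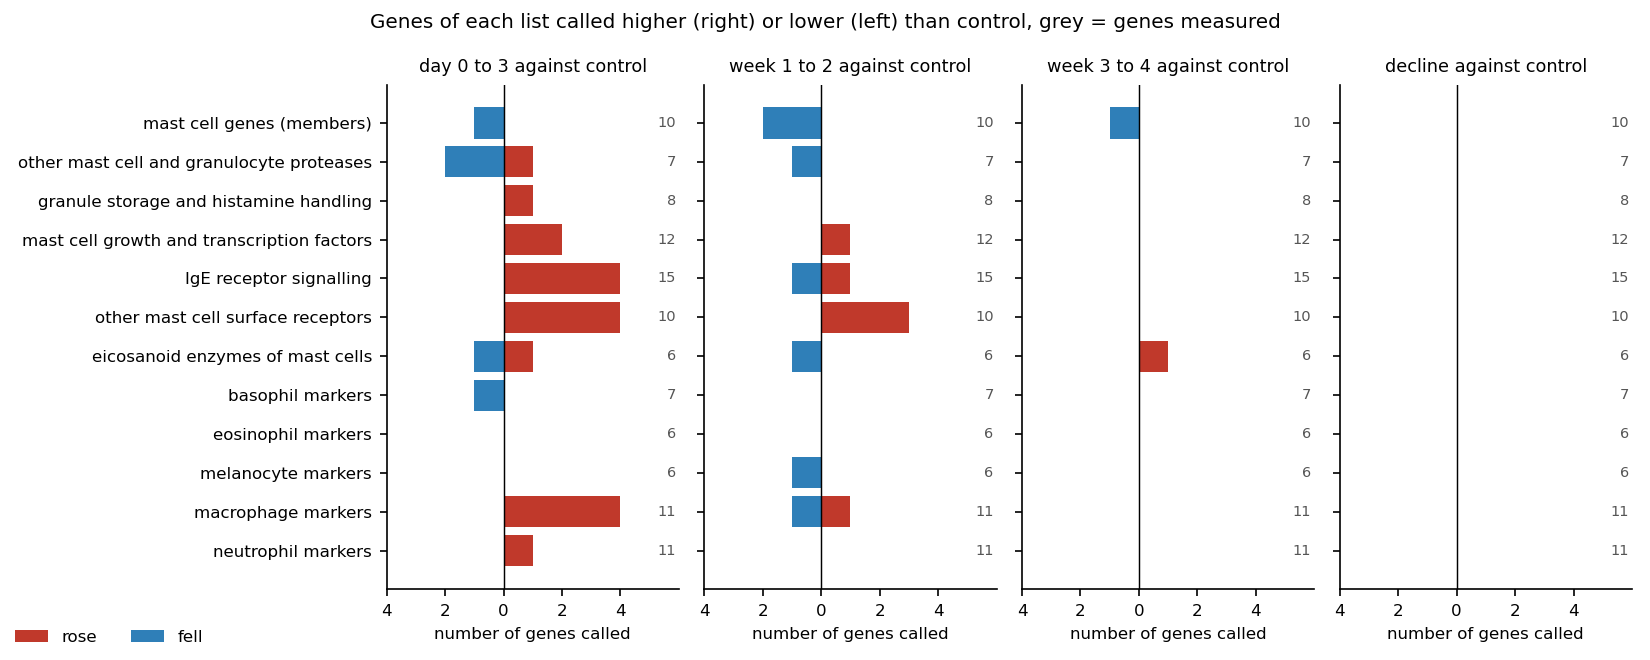
Number of genes (x axis) called higher than control to the right and lower to the left at an adjusted p under 0.05 (limma), for the mast cell genes, the 6 wider lists and 5 sets of cell type markers (rows) in the 4 phases (panels), with the number measured in grey. Upward calls at day 0 to 3 number 4 each for IgE receptor signalling, other mast cell surface receptors and macrophage markers, and 0 for the mast cell genes. Of all genes, 4.46% were called higher in that phase.

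Markers of other cells changed alongside. Of 11 macrophage markers 4 rose and 0 fell at day 0 to 3, where 4.46% of all genes rose. Msr1, a scavenger receptor of macrophages, led the 4 at 2.87 (adjusted p = 0.00199). The mean log2 value of the whole list went from a range of 7.21 to 7.98 in the controls to 8.33 to 8.64 at day 0 to 3. In week 1 to 2, 1 of the 11 was called higher and 1 lower, where 5.41% of all genes were called higher and 4.64% lower. For the mean of the 4 phases 2 were higher and 1 lower, beside 6.54% and 6.07% of all genes. Fcer1g, Syk, C3ar1, C5ar1, Csf2rb and Srgn are all expressed by macrophages too, and the part of macrophages in their rise was not tested. Basophils share Fcer1a, Ms4a2 and Hdc with mast cells. Of 7 basophil markers, which include Mcpt8, Prss34, Cd200r3 and Gata2 of the lists above, 0 rose in any phase. Prss34 alone of them fell at day 0 to 3, where 3.36% of all genes fell. Their mean log2 value was 5.97 to 6.17 in the controls, 5.68 to 5.73 at day 0 to 3, 5.80 to 5.83 in week 1 to 2, 5.85 to 6.32 in week 3 to 4 and 5.74 to 6.05 in decline. The basophil protease gene Mcpt8 changed by -1.20 at day 0 to 3 (adjusted p = 0.0707). No eosinophil marker of 6 was called in any phase, and at an unadjusted p under 0.05 2 of them differed in each phase, where 26.1%, 29.9%, 23.9% and 12.0% of all genes did.

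The tissue around the mast cells also differed between groups. At day 0 to 3, 4 of 8 endothelial markers rose and 5 of 8 adipocyte markers fell, where 4.46% of all genes rose and 3.36% fell. Of 13 skeletal muscle markers 12 fell at day 0 to 3, where 3.36% of all genes fell. The mean log2 value of the list was 11.1 to 11.7 in the controls, 8.87 to 8.97 at day 0 to 3 and 9.93 to 11.2 in the later phases. In such mixed tissue fewer mast cells and less RNA per mast cell cannot be told apart, and neither can a change in the mast cells from a change in the share of other cells. When the array of animal 57 was added, 0 of 10 mast cell genes were called in any comparison. Of all 19938 genes, 163, 106, 0 and 0 were then called against control in the 4 phases in order of time, and 156 for their mean. The mean change over the 4 phases was -0.63 for Ms4a2 (adjusted p = 0.139) and 0.73 for Fcer1a (adjusted p = 0.0763) with that array. In that setting the wider lists of signalling genes and surface receptors had no call against control either.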

How the data were processed

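Per the labels, each of 15 tarsal joints was hybridised to 1 Affymetrix Mouse Gene 1.0 ST array, and the authors deposited log2 RMA values (R 2.15 and affy in the submitters' processing notes), already background-corrected, quantile normalised and summarised per probe set. Quantile normalisation forces arrays towards 1 distribution, yet the deposited arrays still differed in width. The values carry no detection calls. Of 35556 probe sets, 21789 were annotated to 1 gene, 1621 to several and 12146 to none in the platform annotation used. Where a gene had several probe sets (999 genes), the brightest on average stood for it, which left 19938 genes. Array 57 was left out as a quality control failure per the labels.

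Groups came from the labels. Linear models with 5 group means were fitted to the 14 arrays with limma 3.58.1 (R 4.3.3) with empirical Bayes moderation, and p-values were adjusted by Benjamini-Hochberg over all 19938 genes, with an adjusted p under 0.05 as a call. Each joint carries its own animal number, so p-values measure the spread between joints. The number of arrays (2 or 3 per group) limits the precision. Correlations used 100000 permutations (Python 3.11.15, scipy 1.17.1). The scripts were tested on simulated data. All 10 members were named. Of every other list, members called against control were named, up to 4 by the size of the mean change, or up to 2 with the largest change where none was called; lists of other tissues are given by their counts, with 1 or 2 genes. The members and lists were chosen with earlier results of these data known. Alternatives were another test, normalisation, filter, threshold, choice of probe set and set of arrays, with a block for a letter code in the array names. Positions and promoter sequences are from RefSeq on GRCm38.p6. Tpsb2 and Tpsab1 were not in the promoter table used. Mcpt9 and other listed genes without a probe set of their own were not analysed here.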

Additional observations from a re-analysis of the deposited data

Results flagged for a closer look

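The array of animal 57, a joint of day 0 to 3 left out of all comparisons for quality, read above every control for 6 of the 10 mast cell genes, as it did for 36.3% of all genes. Its median over all probe sets was 6.39, the highest of the 15 arrays (controls 6.15 to 6.30). Tpsb2 read 6.41 there (controls 6.25 to 6.40) and Tpsab1 6.46 (6.06 to 6.32). Kit read 7.09 (6.81 to 6.91) and Mrgprb1 5.13 (4.70 to 4.83). For the IgE receptor chains the array read 5.23 for Fcer1a (4.73 to 5.14) and 5.17 for Ms4a2 (4.71 to 5.04). On the 2 arrays of day 0 to 3 that were used, Ms4a2 read 4.11 and 4.25, so that animal 57 lay on the other side of the controls for this gene. Mcpt4 read 5.24 and Cpa3 6.45 on the same array, below every other array. The SD over genes of the array was 1.08, the smallest of the 15, and its part in these values was not tested.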

How the results depend on the processing

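Of 30 alternatives, 0 reversed the direction of a called gene. As reported, 1, 2, 1 and 0 mast cell genes were called against control in the 4 phases in order of time, 3 for their mean and 1 among the 5 groups. With all 15 arrays every one of these counts was 0. Of all 19938 genes, 1559, 2005 and 309 were called in the first 3 phases as reported, and 1036 among the groups. The plain linear model gave 0 members in week 3 to 4 and 0 among the groups, where it called 0 and 183 of all genes. With the 2 groups fitted alone the member counts were 0 at day 0 to 3, 1 in week 1 to 2 and 0 in week 3 to 4. That fit called 454, 1164 and 2 of all genes in those phases. Trend and robust moderation, array weights and every probe set tested by itself each gave 0 members in week 3 to 4. The first 2 of these called 246 and 331 of all genes in that phase. Centring on the medians gave 0, 1 and 0 members in the first 3 phases and 0 among the groups, and a second quantile normalisation gave 0, 0, 0 and 0. Centring called 1049, 1404 and 51 of all genes in the first 3 phases and 487 among the groups. The second quantile normalisation called 1348, 1656 and 370 of all genes in the first 3 phases. With 1 median and SD for every array, the first 2 phases had 0 and 1, with 1 for the mean (Fcer1a, upward, in each case) and 0 among the groups. With genes of a group mean of at least 6, which keeps 7 members and drops Ms4a2, Fcer1a and Mrgprb1, and with the array SD as a covariate (added after the data were seen), the counts were 0, 1 and 0 in the first 3 phases, 1 for the mean and 0 among the groups. A fold of at least 2 left 0 in the first 3 phases and 0 for the mean. Without control 2 and decline 10, also added later, 0 differed among the groups. The cause of these shifts was not tested. Leaving out 1 array at a time gave 0 to 1 called at day 0 to 3, 1 to 3 in week 1 to 2, 0 to 2 in week 3 to 4, 0 to 1 in decline, 1 to 3 for the mean, 0 to 2 among the groups and 0 to 0 between successive phases. Each of the 7 calls of single genes was lost under at least 2 alternatives. Over the pairs of such a call and an alternative, the call held in 119 and was lost in 72. Over all genes, the number called for the mean of the 4 phases was 2513 as reported and 156 with all 15 arrays. Centring the arrays moved the median change of all genes at day 0 to 3 from -0.12 to -0.02. No paired analysis was possible because the groups share no replicate numbers.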
